A study of Rattus norvegicus with 98 samples.

Results

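The windows described here are 344 stretches of 1 kb on chromosomes 1 to 20 of the rat genome (build Rn5). They lay under peaks of H3K27ac in many more brain libraries of fluoxetine-treated rats (FT) than of control rats (Sham). For each library, a window counted as occupied if 500 bp or more of it were under peaks. Before this, every list was reduced to its 19378 best peaks by the score of the peak caller, the length of the shortest list, so that all lists held the same number of peaks. A window was chosen when it was occupied in 5 to 25 of 46 Sham libraries and in at least 20 more FT than Sham libraries. Of 35120 windows occupied in 5 to 25 Sham libraries, 344 met the second limit (0.979%), out of 145254 windows occupied in any library. The choice rests on the difference between FT and Sham itself. All values that set FT against Sham in these windows are therefore a description, without a test.

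The animals were male Long-Evans rats of 2 months that drank water with fluoxetine, a serotonin reuptake inhibitor, at 18 mg/kg a day over 6 weeks (FT), or water without the drug (Sham). Brain regions were micropunched and the tissue of several animals was pooled into 1 replicate, so that individual animals cannot be seen. H3K27ac was measured by ChIP-seq in 94 libraries of 25 regions, with replicates 1 and 2 of each treatment in 21 regions. The habenula (HB) was left out by the rule, which leaves 46 Sham and 46 FT libraries of 24 regions.

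H3K27ac is an acetyl mark on histone H3 that is laid down by acetyltransferases at active promoters and enhancers, and read by bromodomain proteins. In ChIP-seq, fragments that carry the mark pile up around the nucleosomes of such an element. A peak caller turns the pile into an interval with a start and an end. The ends lie where the signal falls below the caller's limit, so an element can have the same centre and a different width in separate libraries. Brain tissue holds neurons and several kinds of glia. In such bulk tissue, acetylation in fewer cells and weaker acetylation per cell cannot be told apart.

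The shortest and longest lists had 19378 and 53135 peaks in Sham and 24429 and 54505 peaks in FT. Most FT lists were longer than most Sham lists. At full length, the lists occupied a mean of 56598 windows in Sham and 76165 in FT. The lists give no read counts, and the sequencing depth is unknown. In the equal-size lists the median peak was 1857 ± 279 bp wide in Sham (mean ± SD of the library medians, n = 46) and 2096 ± 123 bp in FT (n = 46). The Sham library of HB stood apart, with a median width of 500 bp against at least 1000 bp elsewhere.

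Most of the gained windows were the flanks of peaks that the Sham lists also held, and few held the centre of a peak. In 304 of the 344 windows (88.4%), FT occupied the window mostly through a peak that overlapped a peak of the paired Sham library, wherever that library did not occupy it itself. The pairs share the region and the replicate number. These are called edge windows. In the other 40 windows (11.6%), called separate windows, fewer than 50% of such FT peaks overlapped a peak of the paired equal-size Sham list. The name refers to this overlap and not to a whole peak inside the window. The median gain of these 40 windows by peak centres was 0 libraries. When each peak was reduced to its centre, 4 of the 344 windows kept a gain of at least 20 libraries. The same limits applied to peak centres across the genome chose 8 of 22340 windows (0.0358%), and 4 of these were among the 344. In the reverse direction, with more Sham than FT libraries, 2 of 37547 windows (0.00533%) were chosen with peaks at full width and 4 of 21445 (0.0187%) with centres.

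Each window was turned so that the neighbouring window with more Sham libraries lay on the left, and the share of libraries with a peak at each distance was averaged over windows and over both replicates. In edge windows, 91.5% of Sham and 97.4% of FT positions were under a peak at 950 bp to the left of the centre. At 50 bp to the left, the shares were 48.8% in Sham and 88.3% in FT, the widest difference of the profile at 39.5 percentage points. At 450 bp to the right they had fallen to 0.809% and 2.41%. The border of the peak thus fell inside the window in both treatments. In separate windows the difference was also present under the body of the peak. There, 47.3% of Sham and 78.4% of FT positions were covered at 950 bp to the left, and 34.7% and 78.2% at 50 bp to the left. At 450 bp to the right these shares had fallen to 4.91% and 13.7%, so the border mostly fell inside these windows as well. The definition of separate windows fixes much of the difference under the body.

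**Figure D1:**
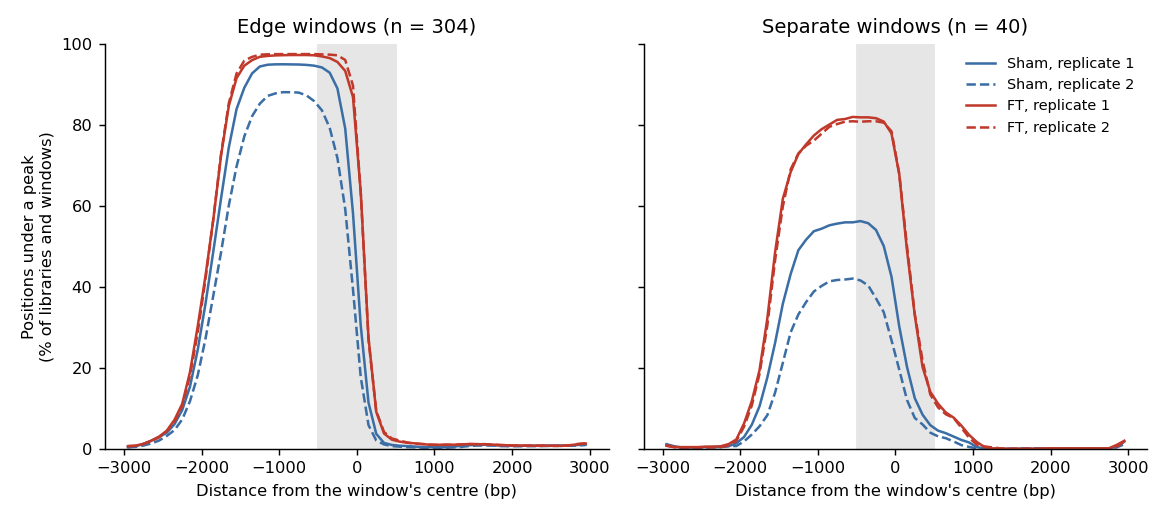
Share of libraries and windows with a peak at each distance from the window's centre (x axis in bp, y axis in percent), for the 304 edge and the 40 separate windows, with a line for each treatment and replicate and the 1 kb window in grey. In edge windows the Sham and FT curves part mainly at the border inside the window, and in separate windows they part along the whole peak.

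The bases covered in each window lay close to the limit of 500 bp. Over all libraries and windows, the median cover was 435 bp in Sham (interquartile range 276 to 546) and 592 bp in FT (506 to 674). Cover of 300 to 699 bp was found in 67.4% of Sham and 76.9% of FT library-windows, against 18.4% in both treatments for all windows in 5 to 25 Sham libraries. The share of library-windows that counted as occupied was 32.5% in Sham and 79.5% in FT, while the share with at least 1 bp under a peak was 85.3% in Sham and 95.6% in FT. The Sham peaks were in most cases present and stopped short of the limit.

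Of the 10674 Sham library-windows that were not occupied, 8351 (78.2%) had a peak in part of the window, with a median cover of 399 bp (interquartile range 301 to 458). For all windows in 5 to 25 Sham libraries this share was 19.6%. A further 311 (2.91%) had a peak within 1 kb of the window and 229 (2.15%) within 1 to 5 kb. In 1783 (16.7%) no peak was within 5 kb. The neighbouring window occupied in more Sham libraries was occupied in a median of 43 of 46 (interquartile range 37 to 46), against 13 (7 to 25) for the other windows in 5 to 25 Sham libraries. It was occupied in all 46 Sham libraries for 110 of the gained windows (32.0%), against 4.31% of the others.

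A gained pair is an FT library that occupied a window while the Sham library of the same region and replicate number did not. The 344 windows gave 7609 gained pairs in 45 pairs of libraries. In 6352 of them (83.5%) the FT peak overlapped a peak of the paired Sham list. In 308 (4.05%) the window was occupied in the Sham list as deposited but not among its best 19378 peaks, and in 620 (8.15%) the FT peak touched a peak of the deposited list only. In 329 (4.32%) the paired Sham list had no peak there at all. For the other windows in 5 to 25 Sham libraries, 206926 gained pairs gave 47.0%, 28.6%, 11.4% and 13.0% in the same order. Against the deposited Sham list, and against all Sham libraries of the region, the overlapping share was 95.7% and 92.9%.

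The FT peaks over gained windows had a median width of 2000 bp (interquartile range 1800 to 2200), the same median as over the other windows. Their centre lay in the window in 155 of 7609 pairs (2.04%), against 29.2% for the other windows, and at a median of 891 bp from the middle of the window. They stood higher in their lists, at a median rank of 9499 from the top (interquartile range 5477 to 12964) against 14286.5 for the other windows. Peaks that joined several Sham peaks into 1 were rare, at 24 pairs (0.378%). In the 6352 overlapping pairs the FT peak was a median of 300 bp wider than the Sham peak (interquartile range 200 to 500). Much of this is fixed, since a gained pair is one in which FT and not Sham passed the limit on cover.

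Both borders of these peaks lay further out in FT. For 13253 peaks over gained windows that matched 1 to 1 between paired lists, the border on the side of the window lay a median of 112 bp further out in FT (interquartile range 18 to 226). The opposite border lay 81 bp further out (-8 to 187). The matched peaks were a median of 200 bp wider in FT (100 to 400), and 75.5% of them were wider. Among all 725134 peaks matched in this way over the genome, the median difference was also 200 bp (0 to 300), and 69.4% were wider in FT. By pair of libraries, the median difference over gained windows was above 0 in 37 of the 45 pairs, 0 in 6 and below 0 in 2. Over all matched peaks it was above 0 in 34, 0 in 9 and below 0 in 2. The median of these pair medians was 200 bp over gained windows and 100 bp over all matched peaks. The value over gained windows was the larger in 17 pairs, equal in 28 and the smaller in none. The choice of windows by their FT gain fixes much of the shift at the border beside the window. It also fixes much of the contrast with all matched peaks.

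The gain of the 344 windows ran from 20 to 28 libraries with a median of 21. They were occupied in 5 to 25 Sham libraries (median 15) and 25 to 46 FT libraries (median 37). At the limit itself, 134 windows had a gain of exactly 20, 183 had 21 to 24 and 27 had 25 or more. Just outside it, 172 windows had a gain of 19. At the limits on Sham libraries, 8 members were occupied in 5 and 2 in 25. Just outside them, 5 windows with a gain of at least 20 were occupied in 4 Sham libraries and 2 in 26.

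**Figure D2:**
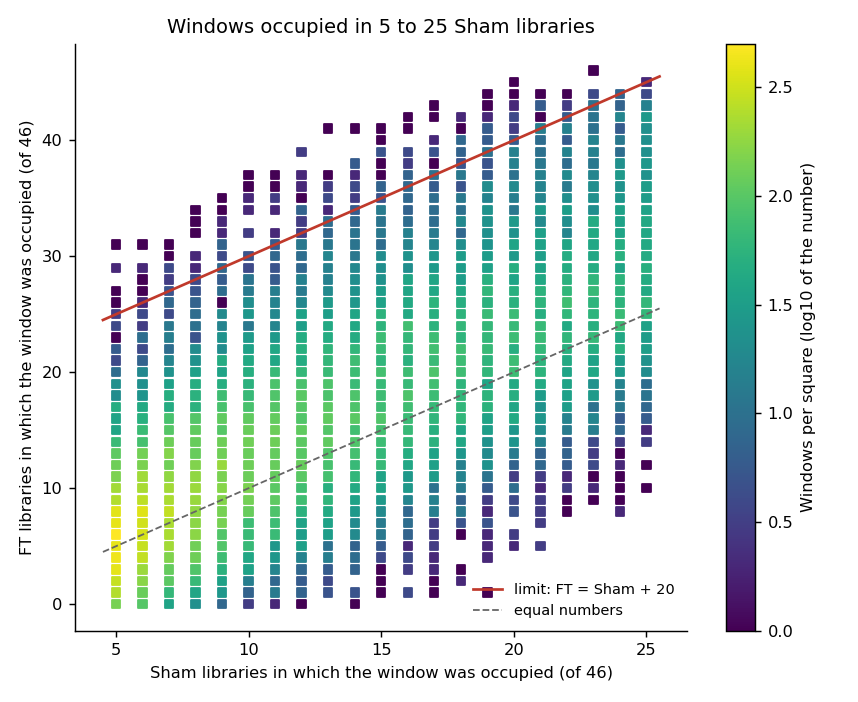
Number of Sham libraries (x axis) and FT libraries (y axis) in which each of the 35120 windows was occupied, with the colour giving the log10 of the number of windows at each square. The 344 chosen windows are those on and above the red line, and most windows lie far below it.

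The windows were spread over the genome. They formed 342 loci, since only 2 pairs of them adjoined each other. Chromosome 1 held 53, or 1.30% of its windows in 5 to 25 Sham libraries, and chromosome 14 held 5 (0.406%). The highest share was 1.36% on chromosome 5, with 33 windows.

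The regions differed in how much of the gain they carried. The share of the 344 windows that a library occupied had a mean of 32.5 ± 22.5% in Sham (SD, n = 46 libraries, 0.872 to 70.6%) and of 79.5 ± 14.7% in FT (n = 46, 14.0 to 93.3%). The FT mean was above the Sham mean in all 24 regions, and FT was above Sham in 44 of 45 library pairs. In 19 of the 21 regions with 4 libraries both FT values lay above both Sham values. Much of these counts, and of those by window that follow, is fixed by choosing windows for their FT gain. Over all windows that met the limits on Sham libraries, the treatments overlapped in more regions, which are named below. FT then also lay below Sham in more of the library pairs, though still in a minority. Among these were replicate 1 of NaCshell, VMH and venDG and both replicates of Raphe. A window was higher in FT in a median of 16 regions (11 to 21) and lower in a median of 1 (at most 3). In 166 windows no region was lower.

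The difference was widest in the medial preoptic area (MPOA), where the Sham libraries occupied 20.6% and 0.872% of the windows and the FT library 93.3%. In the medial septum (MS) the Sham libraries stood at 4.07% and 5.23% and the FT libraries at 89.2% and 78.2%. In the prelimbic cortex (PLC) they stood at 9.59% and 2.03% against 87.5% and 79.4%, and in the infralimbic cortex (ILC) at 13.1% and 0.872% against 83.1% and 71.2%. With NaCshell, these regions had the lowest Sham means, at 4.65 to 10.8%, and the treatments did not overlap in any of them. Their Sham lists had mean median widths of 1550, 1650, 1300 and 1350 bp, in the order given, against 2050 to 2150 bp in FT. Both FT libraries occupied a window that no Sham library of the region occupied for 226 of the 344 windows in MS (65.7%), 212 in PLC (61.6%) and 175 in ILC (50.9%). The choice of windows by their FT gain fixes much of these counts, and the same count over all 35120 windows is not given here. Over all of those, FT minus Sham was 17.8 points in MS, 17.3 in PLC and 16.5 in ILC.

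A middle group followed, with FT minus Sham differences in percentage points of 67.2 in NaCcore (core of the nucleus accumbens), 62.8 in BNST (bed nucleus of the stria terminalis), 61.8 in BLA (basolateral amygdala), 56.7 in LS (lateral septum), 56.0 in CMA (centromedial amygdala) and 54.9 in VTA (ventral tegmental area). The difference was 48.1 in MDT (mediodorsal thalamus), 46.8 in CGC (cingulate cortex), 45.1 in LH (lateral hypothalamus), 44.0 in NaCshell (accumbens shell), 41.4 in VMH (ventromedial hypothalamus) and 38.1 in PVN (paraventricular nucleus), the last with 1 library in each treatment. It was 36.6 in PAG (periaqueductal gray), 35.3 in dorDG (dorsal dentate gyrus) and 26.2 in Raphe. NaCshell aside, the FT means of these regions lay between 75.9% and 88.5% and the Sham means between 13.8% and 58.1%.

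The smallest differences were 19.9 points in arc (arcuate nucleus), 19.5 in InsularCortex, 18.5 in Snt (solitary tract nucleus), 15.8 in LC (locus coeruleus) and 10.2 in venDG (ventral dentate gyrus). Sham and FT overlapped in LC, where the Sham libraries occupied 70.6% and 24.1% and the FT libraries 79.7% and 46.8%. They also overlapped in venDG, with 37.2% and 53.8% in Sham and 29.1% and 82.3% in FT. In NaCshell the FT libraries were far apart, at 14.0% and 89.2%, both above the 7.56% of each Sham library. Over all 35120 windows in 5 to 25 Sham libraries, the same difference between FT and Sham ran from -2.08 points in venDG to 18.8 in MPOA. It was also negative in Raphe (-1.47) and arc (-0.241). Over those windows, Sham and FT libraries overlapped in InsularCortex, NaCshell, LH, VMH, dorDG, venDG, VTA, Raphe, LC and Snt. In the other regions with both replicates of each treatment, both FT values lay above both Sham values. With FT replicate 1 of NaCshell and of venDG left out, an alternative chosen after seeing the data, the rule chose 426 windows.

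**Figure D3:**
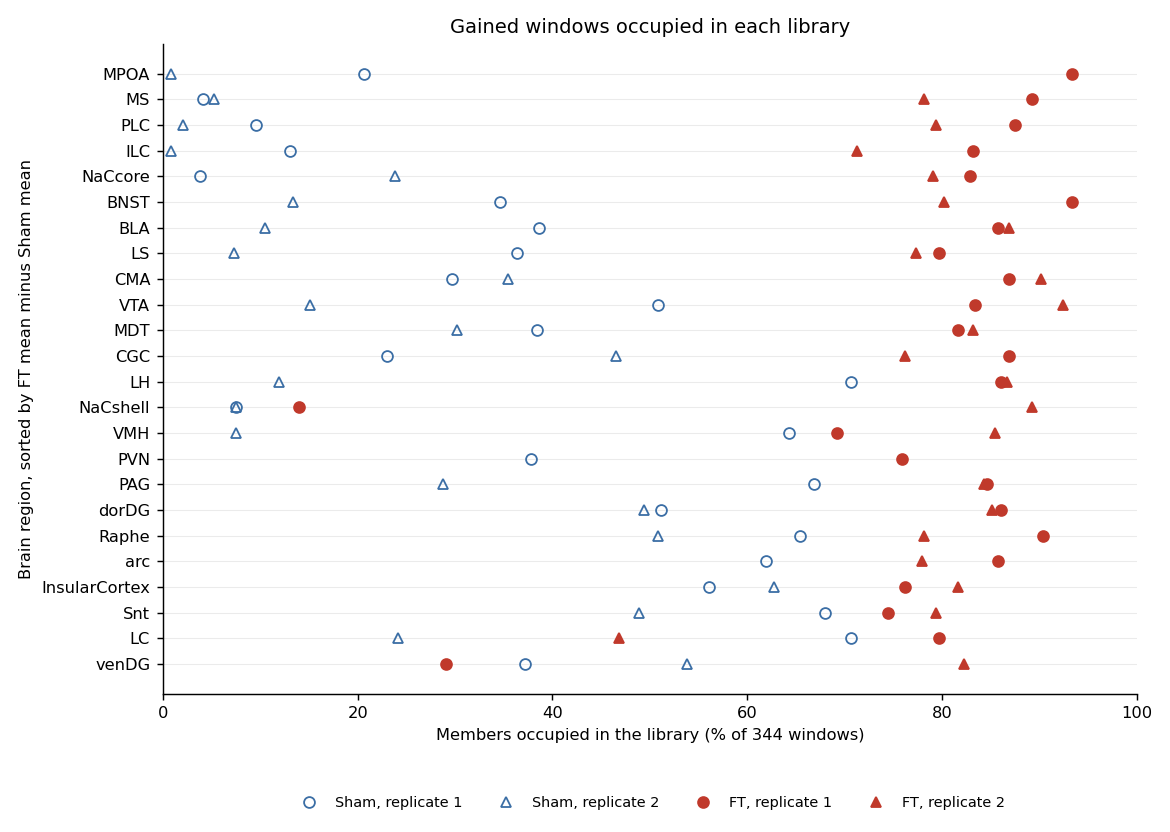
Share of the 344 windows occupied in each library (x axis, percent) for each of the 24 regions (y axis, sorted by FT mean minus Sham mean), with Sham as open and FT as filled symbols, replicate 1 as circles and replicate 2 as triangles. Most FT libraries lie to the right of the Sham libraries of their region, with overlap in LC and venDG, and Sham libraries spread from 0.872% to 70.6%.

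Libraries with wider peaks, and those with longer deposited lists, occupied more of the windows. Over the 46 Sham libraries the share of windows occupied had a Pearson correlation of 0.855 with the median peak width (Spearman 0.962), and over the 46 FT libraries 0.880 (Spearman 0.542). With the number of peaks in the deposited list, the Pearson correlation was 0.910 in Sham and 0.848 in FT. These are descriptions over libraries that share regions and pools of animals. In every one of the 344 windows, the Sham libraries that occupied it had wider peaks on average than the Sham libraries that did not, by a median of 263 bp. The same direction held in 80.5% of all windows in 5 to 25 Sham libraries. The parts of peak width and of list length in the difference between FT and Sham were not tested.

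Libraries of the same median width can be set side by side, though the choice of windows by their FT gain fixes much of what is seen. At 2100 bp, 9 Sham libraries occupied 48.8 to 70.6% (median 61.9%) and 24 FT libraries 75.9 to 93.3% (median 83.1%). At 2000 bp, 11 Sham libraries occupied 30.2 to 56.1% (median 38.4%) and 5 FT libraries 69.2 to 77.9% (median 76.2%). At 1800 to 1900 bp, 8 Sham libraries occupied 15.1 to 35.5% and 2 FT libraries 29.1% and 46.8%. At 2200 bp, 3 Sham libraries occupied 65.4 to 70.6% and 14 FT libraries 74.4 to 93.3%. For all windows in 5 to 25 Sham libraries, the Sham and FT medians were 33.6% and 33.8% for 2100 bp and 29.9% and 31.5% for 2000 bp. FT was the lower for 1800 to 1900 bp, at 26.6% and 25.3%, and for 2200 bp, at 41.3% and 37.7%. When lists were filled to the same covered length of 20.3 Mb in place of the same number of peaks, the rule chose 91 windows (0.463% of 19646), of which 81 were among the 344. The reverse rule then chose 21.

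**Figure D4:**
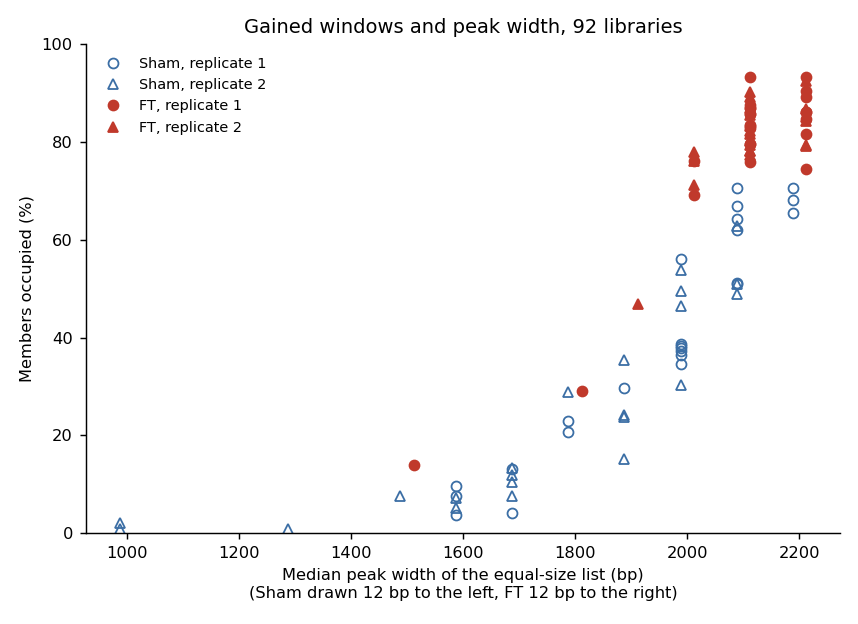
Median peak width of each equal-size list (x axis, bp) and share of the 344 windows occupied (y axis, percent) in 92 libraries, with Sham as open and FT as filled symbols, replicate 1 as circles and replicate 2 as triangles. The share rises with width in both treatments, and the windows were chosen for being occupied in more FT than Sham libraries.

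The limit on cover decided which windows were chosen. With any overlap counted, 346 windows met the limits (0.693% of 49940), and 4 of them were among the 344. With at least 900 bp required, 362 did (1.56% of 23225), and 5 were among the 344. A nearly separate set of windows was thus chosen at each level of cover, in similar number. The difference over the 344 windows was 46.9 percentage points at the limit of 500 bp, 10.3 with any overlap and 2.72 with 900 bp.

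The replicates can be compared within each treatment as a description, since the same occupancy chose the windows. Sham replicate 1 occupied 40.0 ± 23.3% of them and Sham replicate 2 25.5 ± 19.7% (SD, n = 21 regions). The mean difference was 14.5 points with an SD of 23.9 over regions, and 14 of 21 regions were higher in replicate 1. Over all windows in 5 to 25 Sham libraries it was 4.87 points. The mean peak width was 1952 bp in the first and 1771 bp in the second pool. In FT, replicates 1 and 2 occupied 77.6 ± 19.6% and 80.6 ± 9.30%, a mean difference of -3.02 points with an SD of 23.0, and 11 of 21 regions were higher in replicate 1. The mean difference was larger in size in Sham than in FT. The SD gives the spread of single regions and not the error of the mean.

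Regions share the pooled animals, so these values bear on the pools and not on animals. With lists of equal covered length the Sham difference was 4.37 points, and with peak centres it was -0.484 points. The number of chosen windows also moved with the Sham pool. With limits scaled to the libraries left, 1392 windows were chosen when Sham replicate 1 was left out, of which 275 were among the 344. When Sham replicate 2 was left out, 113 were chosen, of which 92 were among the 344.

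The edge windows with the widest gain show the pattern singly. The first lay at chr5:62688001-62689000 and was occupied in 13 Sham and 41 FT libraries. Its cover in Sham ran from 0 to 681 bp with a median of 463.5 bp, and in FT from 0 to 881 bp with a median of 617.5 bp. The groups overlapped over most of the range, and the medians lay on opposite sides of 500 bp. In 26 Sham libraries a peak covered part of the window below the limit, and in 7 none did. One neighbour was occupied in 39 Sham and 45 FT libraries and the other in none. All FT and no Sham libraries occupied it in 10 regions, among them PLC, ILC, LS, MS, BNST and BLA.

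The second edge window, chr16:61460001-61461000, was occupied in 10 Sham and 37 FT libraries, with 0 to 659 bp covered in Sham (median 419) and 300 to 670 bp in FT (median 565). Only 2 Sham libraries had no base of it under a peak. In 27 of its 28 gained pairs the FT peak overlapped the paired Sham peak. Its neighbour was occupied in 44 Sham and 46 FT libraries.

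The remaining edge windows were each occupied in 12 Sham and 39 FT libraries. At chr1:101424001-101425000 the Sham cover ran from 0 to 779 bp (median 357.5) and the FT cover from 0 to 796 bp (median 635.5). At chr3:86276001-86277000 it ran from 0 to 738 bp (median 489.5) in Sham and from 293 to 752 bp (median 576) in FT, and all 28 gained pairs were extensions of a Sham peak. Here a difference of the medians of less than 100 bp stood behind a gain of 27 libraries. The window beside it was occupied in all 46 Sham and all 46 FT libraries. At chr9:82284001-82285000 the cover was 0 to 715 bp in Sham (median 305.5) and 0 to 907 bp in FT (median 632), with 11 regions in which FT and not Sham occupied it. FT replicate 1 of NaCshell occupied none of these 5 windows.

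Separate windows belonged to peaks of lower rank than edge windows. The definition of the classes fixes much of this. A separate window is one where the paired Sham list, ended at 19378 peaks, mostly held no overlapping peak. The peak over the window had a median rank of 18045.8 in the deposited Sham lists and 15965 in the deposited FT lists, counted over the lists that held it. These ranks lie around the length of 19378 at which lists were ended. The FT rank was the better in all 40, though the choice of windows by their FT gain fixes much of this. The deposited lists also differ in length. For edge windows the median ranks were 9446 and 8871.75, and FT was better in 220 of 304. The median over separate windows of the library median cover was 128.5 bp in Sham and 667.5 bp in FT, against 451.75 and 591.5 bp for edge windows. In the deposited lists of full length, separate windows were occupied in a median of 19.5 Sham and 42 FT libraries, up from 13 and 34, and edge windows in 16 and 38, up from 15 and 37.

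A peak was not absent from Sham in any separate window. Each of the 40 was touched by a peak in at least 32 of 46 deposited Sham lists, with a median of 40, and in a median of 45 FT lists. For edge windows the lowest number was 23 and the median 44, and 65 of the 304 were touched in all 46 Sham lists.

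Among separate windows, chr3:167473001-167474000 had a gain of 26, with 11 Sham and 37 FT libraries. Its cover was 0 to 1000 bp in both treatments, with a median of 0 in Sham and 722.5 bp in FT. In 25 Sham and 5 FT libraries it had no base under a peak of the equal-size list, and 6 of its 25 gained pairs were extensions. In lists of full length it was occupied in 19 Sham and 42 FT libraries. The window next to it, chr3:167474001-167475000, was also chosen, with 21 Sham and 41 FT libraries, and no gained pair there was an extension. Together they covered most of 1 peak, of which the first held the flank and the second the centre.

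At chr1:192114001-192115000, with 16 Sham and 42 FT libraries, the median cover was 464 bp in Sham (0 to 839) and 675.5 bp in FT (0 to 829). Extensions made up 13 of its 27 gained pairs, so it stood at the border between the classes. With lists of 10000 peaks its gain of 26 became -1. At chr10:64704001-64705000, with 17 and 43 libraries, the median was 294.5 bp in Sham (0 to 979) and 832.5 bp in FT (0 to 1000). FT libraries stood mostly above 700 bp there, and 19 Sham libraries had no cover. At chr9:18354001-18355000, with 9 and 34 libraries, the median was 0 in Sham (0 to 798) and 697.5 bp in FT (0 to 952). The fifth, chr1:128675001-128676000, had the fewest Sham libraries, with 5 against 29 in FT. Its cover was 0 to 661 bp in Sham (median 64) and 0 to 646 bp in FT (median 510.5), so the FT median lay only just above the limit.

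**Figure D5:**
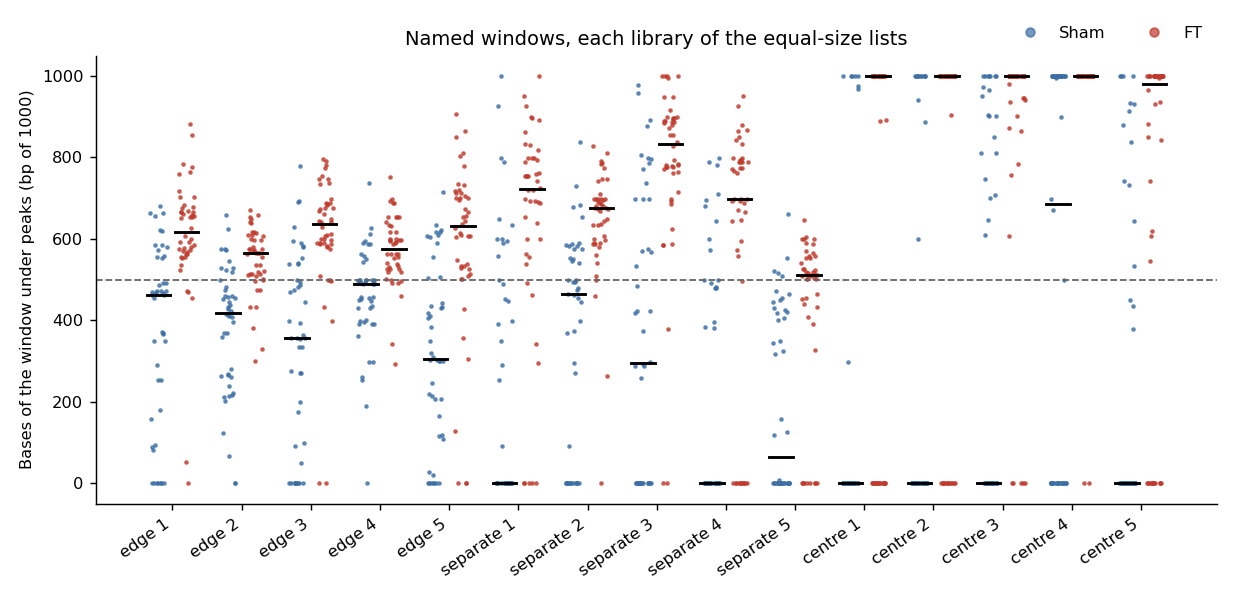
Bases under peaks (y axis, bp of the 1 kb window) in each of 92 libraries for the 5 edge, 5 separate and 5 centre windows named in the text, in the order named, with black bars for the medians and a dashed line at 500 bp. In edge windows the Sham and FT points form overlapping clouds around the line, and in centre windows they fall mostly at 0 or 1000 bp.

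Peak centres left little of the gain. In 301 of the 344 windows (87.5%) no library of the equal-size lists had a centre in the window. FT libraries outnumbered Sham libraries in 19 windows, equalled them in 307 and were fewer in 18. When a centre within 1 kb of the window was counted, the median was 43 Sham and 46 FT libraries, and 4 windows kept a gain of at least 20 and 50 a gain of at least 10. The centres of the peaks were thus present near most windows in most Sham libraries.

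The window with the fewest Sham libraries among the 4 was chr19:37149001-37150000. A centre lay in it in 8 Sham and 28 FT libraries. Its cover was 0 in 38 Sham and 18 FT libraries, and the FT median was 1000 bp against 0 in Sham. In deposited lists of full length it was occupied in 31 Sham and 46 FT libraries, and the peak had a median rank of 22491 in Sham and 17550.5 in FT. NaCcore, MS, BNST, MPOA, BLA and PAG were the regions in which FT and not Sham libraries occupied it in the equal-size lists.

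At chr10:55359001-55360000 a centre was found in 13 Sham and 33 FT libraries, and the median rank was 20377.5 and 16968. At chr3:167474001-167475000, the second window of the adjoining pair, it was found in 20 and 40 libraries, with ranks of 18857.5 and 15573.5. At chr7:115862001-115863000 it was also found in 20 and 40, with ranks of 17500.5 and 12438.5. The fifth window by this measure, chr5:175925001-175926000, had centres in 7 Sham and 23 FT libraries, a gain of 16, with ranks of 20142 and 17285. In each of these the Sham peak stood lower in its list than the FT peak, near or beyond the last rank kept. The choice of windows by their FT gain fixes much of this order. In the deposited lists of full length these 5 windows were occupied in 31 to 40 Sham and 45 to 46 FT libraries. With centres taken from those lists, 0 of the 344 windows kept a gain of at least 20.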

How the data were processed

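The authors called H3K27ac peaks in each library separately with DFilter on reads aligned to Rn5. BWA is named in the submitters' processing notes. Each deposited list gives the position and centre of a peak, the highest filter score and the normalised tag count (both deposited as scores), the authors' −log10 p-value, and a false discovery rate deposited as a percent. The lists hold no read counts, so the depth of a library is unknown and no interval was computed. The score was used to rank peaks. Peak starts were taken as 0-based, and printed coordinates are 1-based.

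The members and all lists and limits were chosen with earlier results of these data known. Python 3.11.15, numpy 2.4.6 and pandas 2.3.3 were used. A gained pair was an extension when the FT peak covering most of the window overlapped a peak of the equal-size list of the Sham library with the same region and replicate number. A window was an edge window when at least 50% of its gained pairs were extensions. The windows named are the 5 with the largest gain among edge windows, among separate windows and by peak centres, with ties broken by fewer Sham libraries and then by position. Replicates 1 and 2 were compared by mean and SD over 21 regions. A sign-flip test planned for this comparison is not reported, because the occupancy it reads was also used to choose the windows. The count of covered bases, the rule and the call of extensions were tested on simulated lists. The other steps reported here were not. By the study's methods, FT and Sham samples with the same replicate number were handled side by side. As a check of this pairing, replicate 1 minus replicate 2 was correlated over windows between Sham and FT, with a mean of 0.0133 in 21 regions (-0.0714 to 0.128). No annotation or sequence of Rn5 was used here, so windows carry no gene names. The 4 input libraries were not analysed here.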

Additional observations from a re-analysis of the deposited data

Results flagged for a closer look

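The habenula was left out of the counts, so its FT library is an observation outside the rule. It occupied 284 of the 344 windows (82.6%), within the range of the other FT libraries, and 33.8% of the windows in 5 to 25 Sham libraries. The Sham library of HB, 1 library with a median peak width of 500 bp, occupied 0 of the 344 and covered no base of them. It occupied 207 of the 35120 windows in 5 to 25 Sham libraries (0.589%). With HB kept in, the rule chose 468 windows, and all 344 were among them. This was fixed beforehand, since a Sham library that occupied none of the 344 cannot lower their gain.

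The X chromosome was left out by the rule as well. There, 14 of 807 windows in 5 to 25 Sham libraries (1.73%) met the same limits, and 0 met the reverse limits.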

How the results depend on the processing

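The number of chosen windows and their difference between FT and Sham depended on how much of a list and of a window was counted. Lists of 10000 peaks gave 124 windows and a difference of 26.3 points over the 344, and lists of 5000 gave 42 and 10.7. Equal covered length gave 91 and 20.8, and peak centres 8 and 0.784. The difference was 10.3 with any overlap and 2.72 with 900 bp. Full lists gave 1134 windows, full lists with a −log10 p-value of at least 10 gave 1796, a gain of at least 25 gave 27 and of at least 15 gave 1538. Leaving out a replicate of 1 treatment gave 113 to 1392 windows and 39.5 to 55.1 points. Of the gained pairs, 95.7% were extensions against the full paired list and 92.9% against the Sham libraries of the region, and 80.9 to 86.5% without replicate 1 or 2. With centres of full lists, 0 windows were left. The Sham pool difference was 4.37 points with equal covered length and -0.484 with centres, and the FT pool difference was 0.0138 with centres. The gain at chr1:192114001-192115000 was -1 with 10000 peaks. With the replicate block, in which FT and Sham libraries were counted as pairs, 240 windows were chosen, all among the 344, and the difference was 46.3 points. The causes of these changes were not tested. The depth of the libraries is unknown, so its part was not tested.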
